A study of Homo sapiens with 24 samples.

Results

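The dual-specificity phosphatases of the MAP kinases were followed in the cytoplasmic RNA of stressed U2OS cells, a human osteosarcoma cell line. The set comprised 9 genes, DUSP1, DUSP2, DUSP4, DUSP5, DUSP6, DUSP8, DUSP10, DUSP14 and DUSP16, taken by symbol from the 60308 genes of the exon count table and the 37473 genes of the intron count table. Control cells (Ctrl) were kept in 0.12% DMSO for 2 h. Treated cells had NaAsO2 at 500 µM over 60 min, RK-33 at 6 µM with a pre-treatment of 1 h, or RK-33 followed by NaAsO2 at those doses (Combo). NaAsO2, sodium arsenite, causes oxidative stress and stress granules, and RK-33 is an inhibitor of the RNA helicase DDX3. Nuclei were spun out of each lysate, and a faster spin gave a soluble fraction and an insoluble pellet enriched for RNP granules. With 4 treatments, 2 fractions and 3 replicates there were 24 libraries in 8 groups. By the methods of the study each replicate is a repeat of the experiment. P-values measure the spread between these repeats, estimated for each gene over all 8 groups in 1 fit. Libraries outside a comparison therefore also shape its p-values.

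These enzymes remove phosphate from both the threonine and the tyrosine of the activation loop of a MAP kinase and so switch the kinase off. Several of their genes are immediate-early genes that MAP kinase signalling and cell stress induce quickly, which makes them a negative feedback on ERK, JNK and p38. DUSP1, DUSP2, DUSP4 and DUSP5 are nuclear inducible enzymes, with DUSP5 selective for ERK. DUSP6 is cytoplasmic and selective for ERK. DUSP8, DUSP10 and DUSP16 act mainly on JNK and p38, and DUSP14 is a small enzyme without the amino-terminal domain that docks the kinase.

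Promoters of RefSeq on GRCh38.p14, read from 250 bases before to 50 bases after the start, were searched for 7 of the 9 genes. DUSP5 had no promoter entry, and DUSP4 was left out of the search. The cyclic AMP response element TGACGTCA, searched on both strands, occurred in the promoters of DUSP1 and DUSP8 and in 1.85% of the 35116 promoters of the table. The TATA motif TATAAA, held by 11.5% of promoters, occurred in DUSP1 alone among these 7 genes, 30 bases before its start. The windows are shown for these 2 genes, which rose in the insoluble fraction after NaAsO2 treatment. DUSP2 rose more there and had no match to either motif, and DUSP5, which also rose, had no promoter entry. A link between motif and response was not tested. Capitals mark the motif and the sequences run 5′ to 3′ on the gene's strand.
DUSP1 CRE, 125 bases before the start, chr5:172771303-172771330, reverse strand: gcagggcgggTGACGTCAccgccccgtc
DUSP1 TATA, chr5:172771209-172771236, reverse strand: cagaggccgcaTATAAAcgcgctccccg
DUSP8 CRE, 118 bases before the start, chr11:1572372-1572399, reverse strand: cgggctccgcTGACGTCAcctgcccccg
DUSP8 CRE, 74 bases before the start, chr11:1572328-1572355, reverse strand: tggctgcaggTGACGTCAggggcttttt
The AP-1 motif TGANTCA (7.71% of promoters), the heat shock motif GAANNTTC (6.77%) and the CArG box (1.29%) had no match in the promoters of the 7 genes searched. DUSP1, DUSP2, DUSP8, DUSP14 and DUSP16 have GC-rich promoters of 73.3% to 81% GC, against a median of 58.7% over all promoters.

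AU-rich pentamers, ATTTA in DNA letters, mark many unstable messages of immediate-early genes. They were searched in all members but DUSP4. The 3′ UTR of DUSP1, 666 bases long, holds 4 of them, or 6.01 per kb, a density that 5.12% of 13392 genes with exon tests reach. DUSP14 (4.77 per kb) and DUSP2 (4.59 per kb) follow. DUSP10 holds 3 (3.04 per kb), DUSP16 8 (2.25 per kb), DUSP8 4 (1.62 per kb), DUSP6 1 (0.495 per kb) and DUSP5 0 in 1107 bases. The median over those genes is 1.72 per kb, above DUSP8, DUSP6 and DUSP5. Windows are shown for the 3 members whose densest window holds overlapping pentamers, in capitals.
DUSP1 3′ UTR, chr5:172768637-172768664, reverse strand: tccttATTTATTTAacttcacccgagtt
DUSP8 3′ UTR, chr11:1556381-1556408, reverse strand: taaatatttcgattttttATTTATTTAa
DUSP10 3′ UTR, chr1:221701500-221701527, reverse strand: aaaaaaaaATTTATTTAaaaatattttt
A match to these letters is a description of the sequence and not a measured site.

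A library held 10968059 to 19799530 exon plus intron counts. Levels are CPM, the counts scaled to the size of a library in one table with TMM factors. A gene was called differentially expressed when its edgeR adjusted p was below 0.05 and its log2 fold change reached 1 in either direction. In U2OS, 6 of 8 osteosarcoma and mesenchymal markers reached 1 CPM in every group, and the 8 summed to 2602 to 5051 CPM. COL1A2, at 0.10 CPM in Ctrl soluble, was among those that did not. Of 4 epithelial markers, 3 also reached 1 CPM in every group, and the 4 summed to 15.9 to 21.6 CPM. The 4 blood cell markers summed to 1.46 to 2.63 CPM. Replicate 3 of the NaAsO2 insoluble fraction stood apart from its group. RN7SL1 took 5.79% of its exon counts against 0.426% to 1.23% in the other insoluble libraries, and its TMM factor was the lowest at 0.817. Calls of members that rest on it are given with and without it. Medians, densities, correlations, most list genes and some values under the fold limit are given only with it. The part of its RN7SL1 content in these values was not tested.

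The genes lie on 8 chromosomes of GRCh38. On the reverse strand are DUSP1 (chr5:172768096-172771195), DUSP2 (chr2:96143169-96145440), DUSP4 (chr8:29333064-29350684), DUSP6 (chr12:89347235-89352501), DUSP8 (chr11:1554051-1572271), DUSP10 (chr1:221701424-221742089) and DUSP16 (chr12:12473282-12562863). On the forward strand are DUSP5 (chr10:110497907-110511533) and DUSP14 (chr17:37489891-37513501). DUSP2 is the shortest at 2.27 kb and DUSP16 the longest at 89.6 kb.

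Exon counts of 7 members passed the filter of a mean of 1 CPM. DUSP4 had 13 exon counts over all 24 libraries together, and DUSP6, the cytoplasmic ERK phosphatase, had 119, with 0 to 15 in a library. Without the filter, DUSP4 passed in 0 exon comparisons and DUSP6 in 1, insoluble against soluble after RK-33, at 1.95 (SE 0.74, adjusted p = 0.0345), on 1 to 3 and 7 to 9 counts per library. Counts of DUSP6 are also uncertain because 28.6% of its exon bases are shared with an antisense gene and the counting ignored strand. In Ctrl soluble, CPM of exon counts per kilobase ordered the other members as DUSP1 (36.1 ± 2.87), DUSP14 (33.0 ± 2.63), DUSP2 (25.6 ± 3.499), DUSP5 (12.8 ± 1.51), DUSP16 (10.3 ± 0.355), DUSP8 (4.65 ± 0.415) and DUSP10 (2.37 ± 0.346; SD, n = 3 each). The libraries of DUSP1 and DUSP14 overlapped on this scale, and the libraries of the other neighbours in the order did not. In Combo soluble, DUSP2 (178 ± 6.42) and DUSP1 (161 ± 7.51) led DUSP14 (36.4 ± 1.15; SD, n = 3 each).

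**Figure D1:**
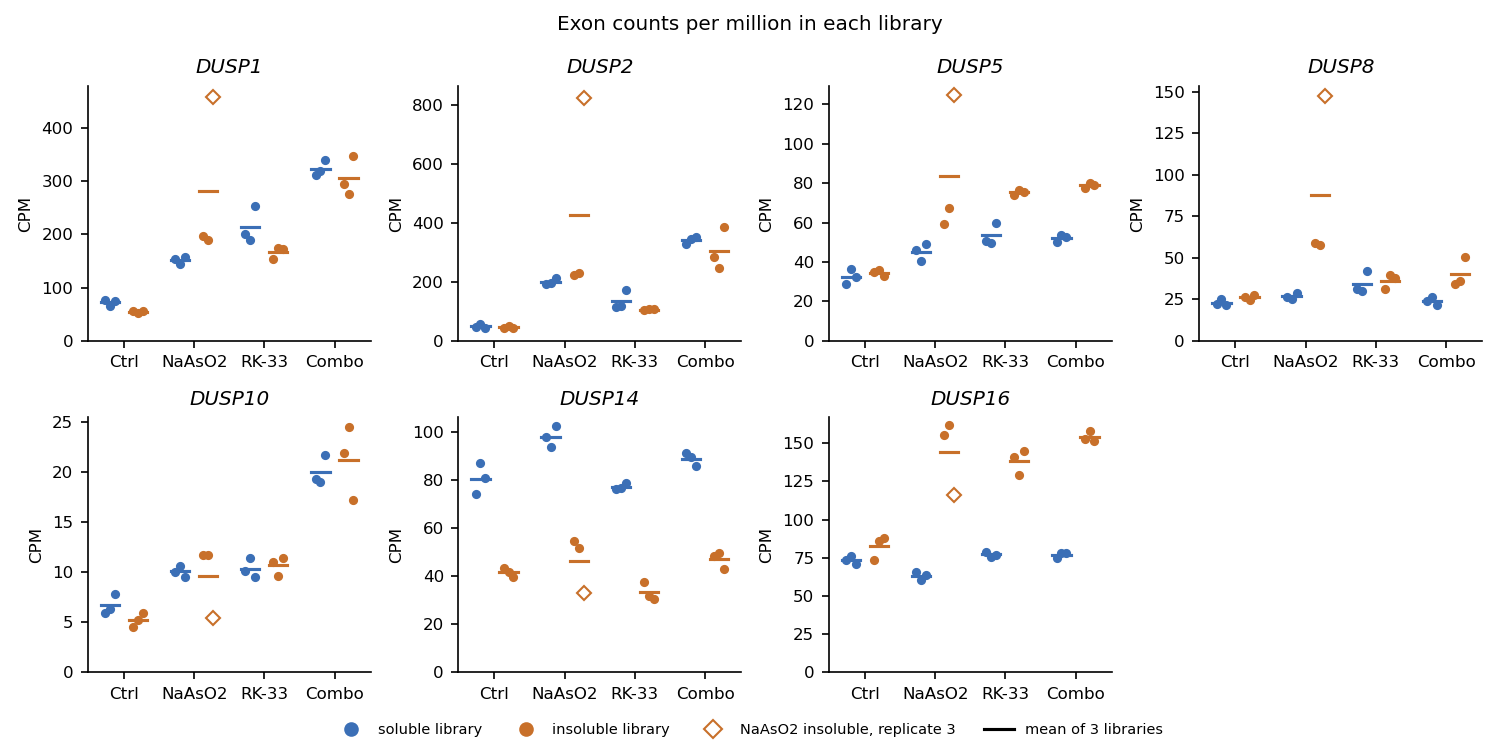
TMM-scaled CPM of exon counts of the 7 members that passed the filter, by treatment (x axis) and fraction (colour). Points are libraries, bars the means of 3 libraries, and the open diamond is NaAsO2 insoluble replicate 3, which reached 827 CPM for DUSP2 while the 2 other libraries of its group were at 225 and 232 CPM.

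DUSP1, the immediate-early phosphatase of p38, JNK and ERK, was higher in every treated library than in every Ctrl library of the same fraction. Its soluble level was 77.4, 66.2 and 74.5 CPM in the Ctrl libraries, 153, 145 and 157 CPM after NaAsO2, 201, 190 and 253 CPM after RK-33 and 311, 319 and 340 CPM in Combo. The 4 soluble groups did not overlap, and RK-33 alone gave a higher level than NaAsO2 alone in every library. Insoluble levels were 56.1, 52.0 and 55.5 CPM in Ctrl, 197, 190 and 459 CPM after NaAsO2, 153, 174 and 173 CPM after RK-33 and 294, 277 and 347 CPM in Combo. The NaAsO2 and Combo libraries overlapped through replicate 3. Mean DUSP1 in Combo exceeded that of Ctrl 4.45 times in soluble and 5.61 times in insoluble RNA, ratios that were not tested.

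DUSP2, a nuclear phosphatase best known from activated lymphocytes, ranged from 43.0 to 827 CPM, wider than any other member's range. The soluble Ctrl libraries held 47.2, 57.0 and 43.996 CPM, the NaAsO2 libraries 192, 198 and 214 CPM, the RK-33 libraries 116, 118 and 174 CPM and the Combo libraries 330, 345 and 354 CPM. These groups did not overlap either, with NaAsO2 above RK-33. Insoluble values were 45.4, 49.5 and 43.0 CPM in Ctrl, 225, 232 and 827 CPM after NaAsO2, 104, 107 and 110 CPM after RK-33 and 283, 249 and 386 CPM in Combo. Replicate 3 of NaAsO2 again stood far above the other libraries. Across all 24 libraries, log2 CPM of DUSP1 and DUSP2 had the highest Pearson correlation of any pair of members (0.93), and DUSP14 and DUSP16 the lowest (-0.73), as a description of libraries that share groups and depth.

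Comparing NaAsO2 with Ctrl asked which transcripts changed on arsenite stress. In the soluble fraction, 2 of the 7 members tested rose, where 0.492% of all 17666 genes tested did, and 0 fell, where 1.18% did. They were DUSP2, higher by 2.03 on the log2 scale (SE 0.33, adjusted p = 0.000367), and DUSP1, with 1.06 (SE 0.22, adjusted p = 0.00273). Without replicate 2 of Ctrl, the value of DUSP1 was 0.93, below the fold limit, as was its 0.87 with library size alone as the scaling. In bulk fractions, more RNA per cell and more cells that carry it cannot be told apart. CPM is a share of a library and was not scaled to the study's spike-in RNA. A higher share without more RNA per cell cannot be told apart from these either. DUSP10 (0.59), DUSP5 (0.48), DUSP14 (0.28), DUSP8 (0.22) and DUSP16 (-0.21) did not pass. The median log2 fold change was 0.48 over the members and 0.03 over all genes tested.

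Insoluble RNA gave 4 of 7 members that rose after NaAsO2, where 5.61% of all genes did, and 0 fell, where 8.37% did. DUSP2 rose by 3.22 (SE 0.34, adjusted p = 3.77e-07) and DUSP1 by 2.37 (SE 0.23, adjusted p = 1.00e-07) on the log2 scale. DUSP8, a phosphatase of JNK and p38, went from 26.5, 24.7 and 27.6 CPM to 59.2, 57.7 and 147 CPM, higher by 1.74 on the log2 scale (SE 0.25, adjusted p = 2.02e-05). DUSP5, the nuclear ERK phosphatase, went from 34.9, 36.2 and 32.8 CPM to 59.2, 67.3 and 125 CPM, higher by 1.27 on the log2 scale (SE 0.18, adjusted p = 1.62e-05). Without replicate 3 of the NaAsO2 fraction, DUSP2 was at 2.38, DUSP1 at 1.89 and DUSP8 at 1.22, and DUSP5 at 0.94 fell under the fold limit. DUSP10, at 1.23, and DUSP16, at 1.01, then passed, so that 5 of 7 members rose, with 8.58% of all genes called in either direction. With all libraries, DUSP10 (0.90) and DUSP16 (0.81) had adjusted p of 0.00224 and 8.22e-06 but missed the fold limit, and DUSP14 was at 0.16. The median over the members was 1.27, against -0.02 over all genes.

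RK-33 was compared with the same Ctrl libraries, which both comparisons therefore share. In the soluble fraction, 2 of 7 members rose (0.283% of all genes) and 0 fell (0.232%). DUSP1 rose by 1.56 (SE 0.22, adjusted p = 0.00018) and DUSP2 by 1.46 (SE 0.32, adjusted p = 0.00827) on the log2 scale. Without replicate 3 of RK-33, DUSP2 was at 1.24 with an adjusted p of 0.0611. In that library RN7SL1 held 15.5% of the exon counts, the highest share of the series, and its part in the value was not tested. DUSP5, at 0.72, had an adjusted p of 0.02 below the fold limit.

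With RK-33, 4 of 7 members rose in the insoluble fraction (0.702% of all genes) and 0 fell (1.16%). The log2 fold change was 1.61 for DUSP1 (SE 0.22, adjusted p = 3.23e-05), 1.22 for DUSP2 (SE 0.32, adjusted p = 0.0131) and 1.12 for DUSP5 (SE 0.18, adjusted p = 0.000189). DUSP5 was at 74.2, 76.7 and 75.5 CPM, a mean of 2.18 times that of Ctrl, and above all Ctrl libraries. DUSP10, a phosphatase of JNK and p38, went from 4.55, 5.24 and 5.89 CPM to 11.1, 9.60 and 11.4 CPM, higher by 1.03 on the log2 scale (SE 0.22, adjusted p = 0.00243). It fell under the fold limit without replicate 1 of Ctrl (0.94) or replicate 3 of RK-33 (0.99). DUSP16, at 0.74 (adjusted p = 7.11e-05), was higher in every RK-33 library but missed the fold limit, DUSP8 was at 0.46, and DUSP14 was at -0.32 (adjusted p = 0.141).

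**Figure D2:**
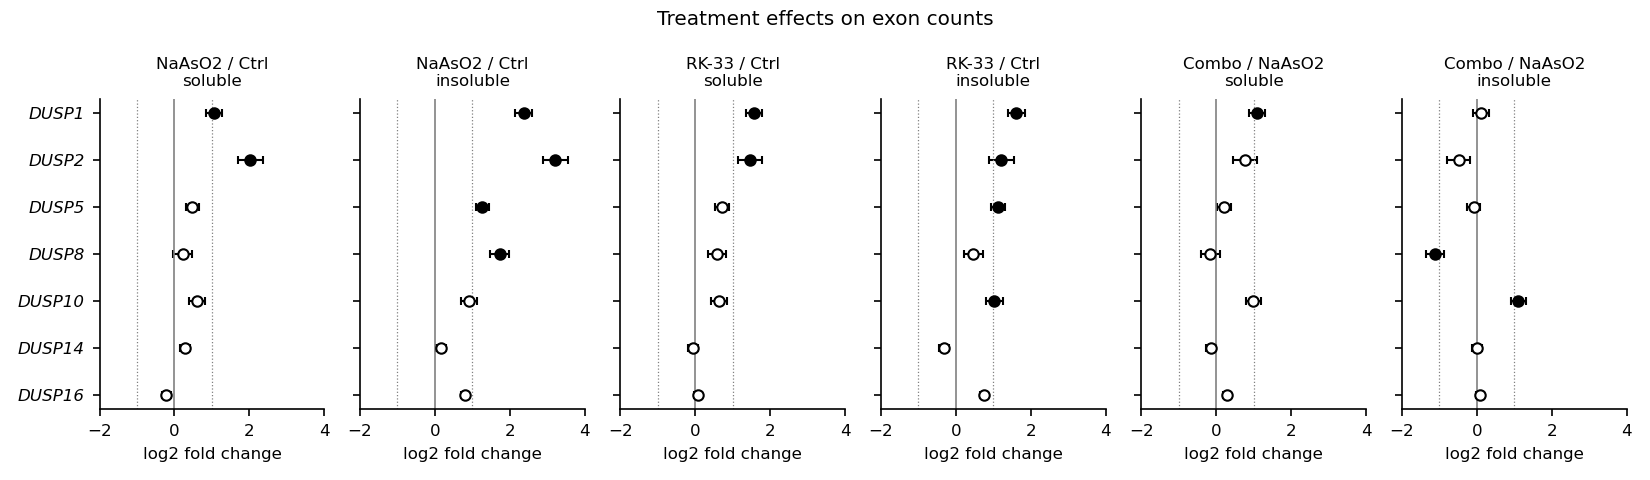
Log2 fold changes of exon counts (x axis) for 7 members in 6 treatment comparisons, with standard errors as bars and dotted lines at -1 and 1. Filled points passed the adjusted p and the fold limit, as DUSP1 did in 5 of the 6 comparisons, and open points did not.

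Combo was compared with NaAsO2 alone to see what RK-33 changed in arsenite-treated cells. With spike-in scaling, the study reported a lower cytoplasmic RNA content after co-treatment, which CPM as a share does not show. In the soluble fraction 1 of 7 members rose (2.41% of all genes). This was DUSP1, by 1.09 (SE 0.22, adjusted p = 0.00296) on the log2 scale. DUSP10 went from 10.0, 10.7 and 9.55 CPM to 19.4, 18.98 and 21.7 CPM without overlap, but its log2 fold change of 0.99 (adjusted p = 0.00366) was just under the limit. DUSP2 was at 0.77 (adjusted p = 0.145) and the other members were between -0.17 and 0.28.

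In the insoluble fraction, DUSP10 rose (1 of 7 members, 3.11% of all genes) and DUSP8 fell (1 of 7 members, 0.815% of all genes). DUSP10 was at 11.7, 11.7 and 5.46 CPM after NaAsO2 and at 21.9, 24.5 and 17.2 CPM in Combo, higher by 1.11 on the log2 scale (SE 0.20, adjusted p = 0.00104). DUSP8 was at 34.2, 36.1 and 50.3 CPM in Combo and fell by 1.12 (SE 0.25, adjusted p = 0.00538) on the log2 scale. Both calls rest on the library that stood apart. Without replicate 3 of NaAsO2, DUSP10 was at 0.80 (adjusted p = 0.00065) and DUSP8 at -0.59 (adjusted p = 0.00623), and 0 of 7 members passed the fold limit. Without replicate 2 of Combo, DUSP10 was at 0.96. A fit of these 2 groups alone gave adjusted p of 0.345 for DUSP10 and 0.387 for DUSP8, and over all genes it called 0.11% in place of 3.93%. In the fit of all groups without replicate 3 of NaAsO2, DUSP1 was at 0.61 and DUSP2 at 0.37, against 0.12 and -0.48 with it.

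Whether RK-33 altered the response to NaAsO2 was tested as an interaction, the change from RK-33 to Combo less the change from Ctrl to NaAsO2. In the soluble fraction 0 of 7 members passed, by edgeR's quasi-likelihood and likelihood ratio tests and by DESeq2, and 1 member, DUSP8, had an unadjusted p under 0.05; 0.957% of all genes passed. The estimates were -0.47 (SE 0.30) for DUSP1 and -0.69 (SE 0.44) for DUSP2, each within 2 SE of 0. DUSP5 at -0.51 (SE 0.25) and DUSP8 at -0.74 (SE 0.36) lay just beyond 2 SE. DUSP10 (0.36), DUSP16 (0.21) and DUSP14 (-0.08) lay within it. Without the filter, DUSP2 at -0.72 (SE 0.23, adjusted p = 0.117) and DUSP1 at -0.50 (SE 0.23, adjusted p = 0.422) also lay beyond 2 SE. In the insoluble fraction 4 of 7 members had a smaller response to NaAsO2 with RK-33 (1.49% of all genes). DUSP2 was at -1.70 (SE 0.45, adjusted p = 0.0167), DUSP8 at -1.58 (SE 0.35, adjusted p = 0.00574), DUSP1 at -1.49 (SE 0.31, adjusted p = 0.00334) and DUSP5 at -1.20 (SE 0.25, adjusted p = 0.00386). Without replicate 3 of NaAsO2, DUSP1 (-1.01) and DUSP8 (-1.06) passed, and DUSP2 (-0.85) and DUSP5 (-0.87) fell under the fold limit. In a fit of the 4 insoluble groups alone, 0 of these 4 passed, with adjusted p of 0.0589 to 0.124, and 195 of all genes did in place of 702.

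Fractions were compared within each treatment, where large shares of all genes differ. In Ctrl 0 of 7 members passed, by edgeR's quasi-likelihood and likelihood ratio tests and by DESeq2, against 22.5% of all genes, and 1 member had an unadjusted p under 0.05. That member was DUSP14, at -0.95 (SE 0.14, adjusted p = 6.38e-06), just short of the fold limit. DUSP14 was lower in the insoluble fraction in every treatment. Its libraries held 73.9, 86.8 and 80.6 CPM in Ctrl soluble and 43.4, 41.8 and 39.6 CPM in Ctrl insoluble, and 76.2, 76.8 and 78.6 CPM against 37.7, 31.9 and 30.5 CPM after RK-33. After RK-33 it was the 1 member of 7 that was lower (15.2% of all genes), by -1.21 (SE 0.14, adjusted p = 1.67e-07), a share near that of all genes. DUSP14 had soluble levels between 73.9 and 102 CPM in all 12 libraries.

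After NaAsO2, 3 of 7 members were higher in the insoluble fraction (14.6% of all genes) and 1 was lower (16% of all genes). DUSP8 was higher by 1.70 (SE 0.25, adjusted p = 5.01e-06), DUSP16 by 1.19 (SE 0.11, adjusted p = 4.21e-09) and DUSP2 by 1.09 (SE 0.31, adjusted p = 0.00532), and DUSP14 was at -1.07 (SE 0.14, adjusted p = 5.50e-07). When replicate 3 of the insoluble fraction was left out, DUSP8 was at 1.15 and DUSP16 at 1.36, DUSP14 was at -0.85 and missed the fold limit, and DUSP2 was at 0.22 (adjusted p = 0.205). The fractions were spun from the same lysates, but the labels do not say that the replicate number marks the lysate. With a block by replicate number DUSP2 was at 0.79, under the fold limit. With these 2 groups alone DUSP2 had an adjusted p of 0.0927. DUSP14 also missed it with DESeq2, at -0.999, and 3 members then passed. DUSP1 (0.89) and DUSP5 (0.88) had adjusted p of 0.00122 and 0.000223 below the fold limit. Both values include replicate 3 of the insoluble fraction, at 459 and 125 CPM, where the group medians were 197 and 67.3 CPM.

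DUSP16, which acts on JNK and p38 and has the longest transcript unit of the set, showed different levels by treatment in the insoluble fraction. Its soluble libraries lay between 60.5 and 78.8 CPM in all 4 treatments. Insoluble DUSP16 was at 73.6, 86.2 and 88.1 CPM in Ctrl, 155, 162 and 116 CPM after NaAsO2, 141, 129 and 145 CPM after RK-33 and 153, 158 and 152 CPM in Combo. In Combo DUSP16 was the 1 member of 7 that was higher in the insoluble fraction (10% of all genes), by 1.002 (SE 0.11, adjusted p = 9.05e-08), a share near that of all genes. This value sits at the fold limit, and it was 0.95 to 0.99 without replicate 1 or 2 of the soluble or replicate 2 or 3 of the insoluble Combo fraction.

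Whether the fraction effect after NaAsO2 differed from that in Ctrl was tested as an interaction, and 3 of 7 members passed, all higher in the insoluble fraction after NaAsO2 than in Ctrl (4.57% of all genes). These were DUSP8 at 1.51 (SE 0.36, adjusted p = 0.00391), DUSP1 at 1.31 (SE 0.31, adjusted p = 0.00382) and DUSP16 at 1.02 (SE 0.15, adjusted p = 7.30e-05). DESeq2 and the likelihood ratio test each called 4. When replicate 3 of NaAsO2 insoluble was left out, DUSP8 was at 1.01, DUSP16 at 1.24 and DUSP1 at 0.85, under the fold limit. DUSP16 fell under it without replicate 1 of Ctrl insoluble (0.94), replicate 2 of NaAsO2 soluble (0.99) or replicate 2 of NaAsO2 insoluble (0.93), and without replicate 1 of NaAsO2 insoluble 5 members passed.

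**Figure D3:**
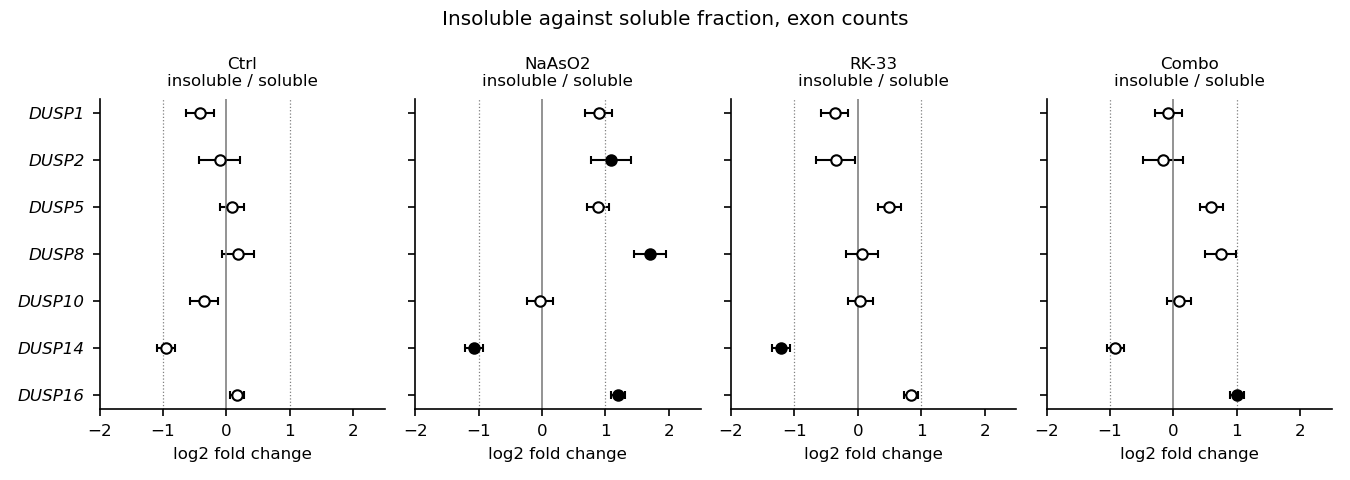
Log2 fold changes of exon counts between the insoluble and the soluble fraction (x axis) for 7 members in the 4 treatments, with standard errors as bars and dotted lines at -1 and 1. Filled points passed both limits. DUSP14 lay between -1.21 and -0.92 in every treatment, and DUSP16 moved from 0.17 in Ctrl to 1.19 after NaAsO2.

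Intron counts were tested for 6 members. DUSP1 had 0 intron counts in all 24 libraries. This says nothing about its unspliced RNA, since all 1087 bases of its introns also lie in an intron of an antisense gene and the counting ignored strand. Parts of the introns of DUSP8 (2.41%) and DUSP16 (6.90%) overlap other genes too. Introns of DUSP2, 343 bases in total, gave 3899 counts and the largest changes of the set. In the soluble fraction they were at 5.12, 5.95 and 3.98 CPM in Ctrl, 44.7, 39.1 and 62.8 CPM after NaAsO2, 12.4, 16.6 and 22.8 CPM after RK-33 and 117, 126 and 104 CPM in Combo, without overlap between groups. With 11 to 17 counts, the Ctrl values are the least precise of these.

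After NaAsO2, introns of 2 of 6 members rose in the soluble fraction (0.925% of 17406 genes tested), DUSP2 by 3.27 (SE 0.39, adjusted p = 3.40e-06) and DUSP10 by 1.02 (SE 0.24, adjusted p = 0.0108). DUSP10 was at 0.89 without replicate 1 of Ctrl and at 0.87 without replicate 2 of NaAsO2, with adjusted p of 0.0852 and 0.0845. Insoluble introns of 2 of 6 rose (10.1% of genes), DUSP2 by 4.04 (SE 0.36, adjusted p = 1.13e-08) and DUSP8 by 1.69 (SE 0.24, adjusted p = 1.06e-05). These were 3.33 and 1.38 without replicate 3 of NaAsO2. The share of all genes depends on the scaling. With exon plus intron library size, 2.74% of genes were higher in the insoluble fraction after NaAsO2 and most calls were lower, while DUSP2 was at 3.60 and DUSP8 at 1.203. In the soluble fraction 0.517% of genes were higher with that scaling, DUSP2 was at 3.00, and DUSP10 at 0.78 did not pass. After RK-33, DUSP2 introns rose by 1.74 (SE 0.42, adjusted p = 0.033) in the soluble fraction (1 of 6, 0.62% of genes), a call that was lost in 5 of the 6 fits that each left out 1 library, at log2 values of 1.52 to 1.87 and an adjusted p of at most 0.195. In the insoluble fraction DUSP2 rose by 1.56 (SE 0.39, adjusted p = 0.0219) and DUSP10 by 1.36 (SE 0.21, adjusted p = 0.000165) (2 of 6, 0.689% of genes), and the DUSP2 call was likewise lost in 5 of 6 such fits, at 1.44 to 1.59 and an adjusted p of at most 0.0928.

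Introns of DUSP10 were highest in Combo. Its soluble libraries held 34.6, 43.8 and 30.01 CPM after NaAsO2 and 66.4, 68.4 and 114 CPM in Combo, and its insoluble libraries held 37.0, 32.4 and 18.1 CPM and 102, 105 and 93.3 CPM. Combo libraries lay above NaAsO2 libraries in both fractions. Relative to NaAsO2, introns of 2 of 6 members rose in Combo soluble (5.37% of genes), DUSP2 by 1.25 (SE 0.29, adjusted p = 0.00364) and DUSP10 by 1.19 (SE 0.22, adjusted p = 0.000243). When replicate 3 of Combo soluble was left out, in which introns took 28.4% of all counts against 18.1% and 19.5% in the other 2 libraries, DUSP10 was at 0.89 (adjusted p = 0.00636). In the insoluble fraction DUSP10 rose by 1.76 (SE 0.21, adjusted p = 5.98e-07) (1 of 6, 6.34% of genes), and by 1.52 without replicate 3 of NaAsO2. Introns of DUSP5 (0.91) and DUSP14 (0.81) in the soluble fraction had adjusted p of 5.40e-05 and 8.76e-05 below the fold limit, while exon counts of these genes were at 0.20 and -0.14.

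**Figure D4:**
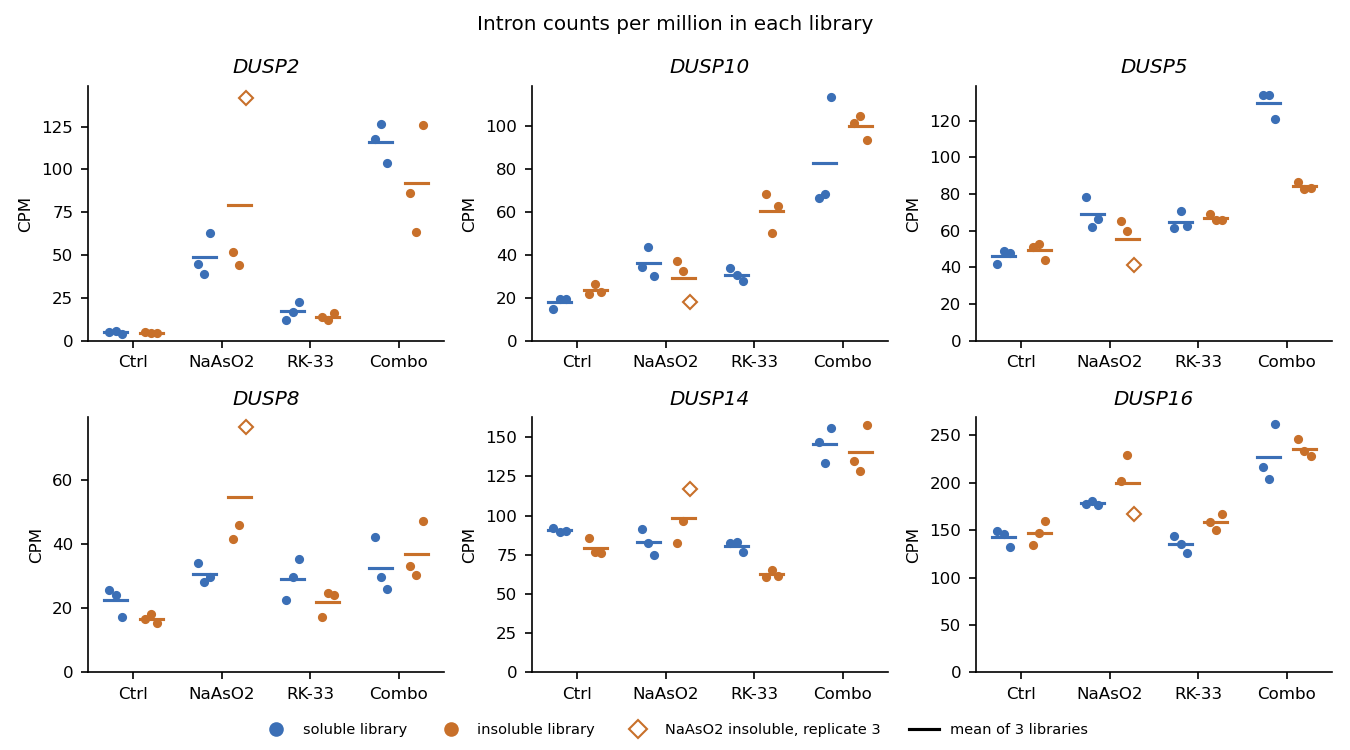
TMM-scaled CPM of intron counts of the 6 members tested, by treatment (x axis) and fraction (colour). Points are libraries, bars the means of 3 libraries, and the open diamond is NaAsO2 insoluble replicate 3. DUSP2 introns lay between 3.98 and 5.95 CPM in all Ctrl libraries and between 63.7 and 126 CPM in all Combo libraries.

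The density of intron counts per base, as a percent of the density of exon counts, sets intronic against exonic RNA. By the study, intronic counts may come from intron-derived transcripts, lariats or unspliced mRNA. DUSP2 has 343 intron bases, against 11092 or more in the other members tested. Fragments that cross an exon edge can weigh more in short introns, so percents are compared within a gene and not between genes. For DUSP2 in the soluble fraction it was 16.1 ± 2.36% in Ctrl, 29.8 ± 2.58% after NaAsO2, 17.7 ± 2.15% after RK-33 and 53.8 ± 4.49% in Combo (SD, n = 3 each). Combo libraries lay at 49.2%, 53.8% and 58.2%, above all others, and the Ctrl and RK-33 libraries overlapped. Insoluble values were 26.8 ± 3.99% in Ctrl, 29.95 ± 8.43% after NaAsO2, 33.7 ± 2.53% after RK-33 and 54.0 ± 5.68% in Combo (SD, n = 3 each). The other members did not share this pattern in both fractions. From Ctrl to Combo the mean soluble density went from 9.29% to 16.1% for DUSP5, from 10.5% to 14.6% for DUSP8, from 5.66% to 9.04% for DUSP10, from 3.73% to 5.49% for DUSP14 and from 4.80% to 7.48% for DUSP16. The Combo means of DUSP10, DUSP14 and DUSP16 rest in part on replicate 3, at 13.8%, 7.41% and 10.3%, where the higher of the other 2 libraries was at 7.03%, 4.57% and 6.17%. The mean insoluble density went from 14.96% to 8.01% for DUSP5, from 15.6% to 11.6% for DUSP10 and from 7.09% to 4.37% for DUSP16, and it was 11.2% and 11.4% for DUSP8 and 10.1% and 11.2% for DUSP14. These differences in density were not tested. The densities are not scaled to the intron share of a library's counts. That share was 30.5% to 36.3% in Ctrl insoluble and 22.3% to 30.2% in Combo insoluble. In the soluble fraction it was 17.7% to 22.3% in Ctrl and 18.1% to 28.4% in Combo. Its part in the densities was not tested. Nuclear-retained RNAs moved with the groups as well. The summed level of 5 such RNAs, most of it MALAT1, was 13189 CPM in Ctrl soluble, 7560 CPM after NaAsO2, 10738 CPM after RK-33 and 10639 CPM in Combo, and 7863, 3068, 7158 and 5994 CPM in the insoluble fractions, and their part in the intron values was not tested.

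**Figure D5:**
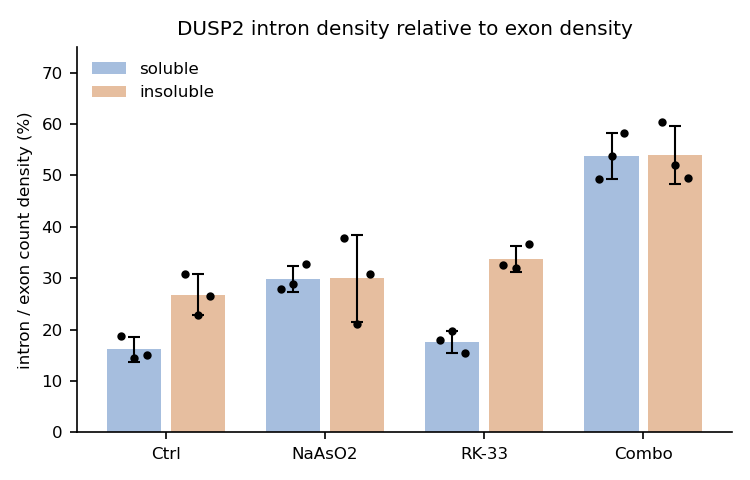
Density of DUSP2 intron counts per base as a percent of the density of its exon counts (y axis), by treatment (x axis) and fraction (colour). Bars are means of 3 libraries, error bars the SD and points the libraries. The Combo means were 53.8% (soluble) and 54.0% (insoluble).

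For the other genes of the pathway, counts of calls were taken over lists. After NaAsO2 and after RK-33 in the soluble fraction, after RK-33 in the insoluble fraction and in Combo against NaAsO2 in the soluble fraction, edgeR's quasi-likelihood test called 0 genes in either direction of 12 other dual-specificity phosphatases tested, 12 MAP kinases, 7 MAP kinase kinases, 22 MAP kinase kinase kinases, 13 output and feedback genes of the ERK pathway and 9 MAP kinase scaffolds. The likelihood ratio test and DESeq2 also called 0 of these 75 genes, and in the 4 comparisons 14, 12, 23 and 8 had an unadjusted p under 0.05 with a higher and 6, 4, 4 and 8 with a lower level. The share of all genes at that unadjusted p was not taken, so these counts cannot be read as a trait of the pathway. At the adjusted p and fold limit, 1.68%, 0.515%, 1.86% and 2.43% of all genes were called, so that a count of 0 in 75 is near that share. After NaAsO2 in the insoluble fraction, 2 other phosphatases, 2 MAP kinases, 0 MAP kinase kinases, 3 MAP kinase kinase kinases, 4 ERK output genes and 0 scaffolds rose, and 0 genes of these lists fell, where 5.61% of all genes rose and 8.37% fell. IER3, an early response gene, rose by 2.65 (SE 0.18, adjusted p = 9.37e-10) and SPRY2, a feedback inhibitor of receptor tyrosine kinase signalling, by 1.53 (SE 0.11, adjusted p = 9.37e-10). The p38 genes MAPK11 (1.41, SE 0.32) and MAPK12 (1.16, SE 0.28) and the kinase kinase kinases MAP3K3 (1.05, SE 0.14) and MAP3K11 (1.16, SE 0.23) also passed. The others were DUSP9 (1.34), DUSP19 (1.37), MAP3K10 (1.75), FOSL1 (1.52) and SPRED1 (1.19), and all of these but DUSP9 were named after their values were seen. Without replicate 3 of NaAsO2, an alternative for these lists chosen after seeing the data, 0 MAP kinases, 1 MAP kinase kinase, 1 MAP kinase kinase kinase and 2 other phosphatases passed, while 5 ERK output genes did and IER3 was at 2.43 and SPRY2 at 1.65. In Combo against NaAsO2 in the insoluble fraction, MAPK13 (1.03, named after its value was seen) was higher and DUSP9 (-1.26) and MAP3K10 (-1.24) were lower. These 3 of 75 genes are a share near that of all genes, 3.93%. Without replicate 3 of NaAsO2, MAPK13 alone passed, at 1.07, where 3.24% of all genes were called.

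The genes most alike to a member were those with the highest Pearson correlation of log2 CPM over the 24 libraries, among genes whose mean reached 10 CPM. They were MAFF (0.96), JUN (0.96) and JMJD6 (0.96) for DUSP1, and JUNB (0.97), BBC3 (0.95) and RHOB (0.94) for DUSP2. For DUSP10 they were CDKN2AIP (0.94), ERRFI1 (0.94) and ATF3 (0.93), and for DUSP5 RGS3 (0.94), FAM83D (0.92) and SAPCD2 (0.92). DUSP8 was most like ZBTB7B (0.98), AJUBA (0.98) and GAS2L1 (0.96), DUSP14 most like EIF1 (0.98), PRDX1 (0.98) and DEK (0.98), and DUSP16 most like FOXO3 (0.98), ZNF217 (0.97) and ZNF275 (0.97). Of the 394 circRNAs in the back-splice junction tables, 0 had a member as host gene.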

How the data were processed

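Total RNA of the soluble and insoluble cytoplasmic fractions was sequenced after rRNA depletion in 24 libraries. According to the labels and the methods of the study, the authors aligned reads to GRCh38.p13 with STAR 2.7.2b and deposited raw counts of fragments on exons and, in a second table, on introns of GENCODE 40 genes from featureCounts 1.5.3, without strand and with a minimum overlap of 25 bases. The deposited circRNA count tables were searched for host genes only. Lines that were split in the tables (1 exon gene, 21 intron genes) were rejoined, and 0 columns belonged to other samples.

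Libraries were grouped by their titles. Genes whose mean reached 1 CPM (17666 in the exon and 17406 in the intron table) were scaled with TMM, and the quasi-likelihood test of edgeR was applied to 1 fit of 24 libraries. P-values were adjusted by Benjamini-Hochberg over all genes of the table, and calls needed an adjusted p below 0.05 and a log2 fold change of 1 or more in size. The fit was also run on simulated counts, with changes put in NaAsO2 soluble alone and no outlying library. That run cannot show how the fit does with replicate 3 of NaAsO2 insoluble. The members, the pathway lists and the rules for named genes (all members, for each list at most the 2 called genes with the smallest adjusted p in each direction and a mean of at least 5 CPM, and the 3 most alike genes) were chosen with earlier results of these data known. Replicates of a group did not agree within sampling noise, with a chi-square per degree of freedom of 2.39 to 142. Depth was 10968059 to 19799530 counts per library. The filter left out DUSP4 and DUSP6, with means of 0.0448 and 0.418 CPM. The study's methods paired the 2 fractions of a treatment, which are parts of 1 lysate, but the labels do not say that equal numbers mark 1 lysate. Deviations of same-numbered fractions correlated above 0.1 in 1 of 12 pairs. Between treatments, 3 of 3 same-numbered pairs of the NaAsO2 and Combo insoluble groups did (r from 0.366 to 0.654), and at most 1 of 3 in any other comparison. Replicate 3 was the least alike in both groups, with a chi-square per degree of freedom of 25.5 to 142. Replicates 1 and 2 were at 5.78 and 3.19. Deviations from means of 3 libraries spread this to every pair, so they cannot show that the numbers pair samples between treatments. The fits reported have no block. Alternatives were RLE factors, library size alone, exon plus intron library size, no filter, no fold limit, edgeR's likelihood ratio test, DESeq2, the compared groups alone, a replicate block and each library left out. Promoters came from RefSeq and 3′ UTRs from GENCODE 44. Software was R 4.3.3, edgeR 4.0.16, DESeq2 1.42.0, Python 3.11.15, pandas 2.3.3 and matplotlib 3.10.9.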

Additional observations from a re-analysis of the deposited data

Results flagged for a closer look

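Differences between 2 effects of the same contrast were flagged where the interaction passed the adjusted p and the fold limit, which 7 values did. The fraction effect (insoluble against soluble) of NaAsO2 exceeded that of Ctrl by 1.31 for DUSP1, 1.51 for DUSP8 and 1.02 for DUSP16 on the log2 scale. The insoluble response to NaAsO2 differed with RK-33 by -1.70 for DUSP2, -1.49 for DUSP1, -1.20 for DUSP5 and -1.58 for DUSP8. Both families share the NaAsO2 insoluble libraries, and replicate 3 moved them, as given with each result. With 3 libraries a group, no test for a single outlying library was made.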

How the results depend on the processing

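Of 570 alternatives to 38 members' results, 509 kept the call, 61 lost it and 0 reversed it. Of 301 alternatives to 19 counts of called members, 245 stayed within 1.5 times and 56 did not. The cause of these moves was not tested.

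The median difference of all genes after NaAsO2 was 0.03 (soluble) and -0.07 (insoluble) with TMM and -0.15 in both with library size alone. With library size alone, 1 member (not 2) passed in exon counts after NaAsO2 soluble, 2 (not 1) in Combo against NaAsO2 soluble, 1 (not 2) in the insoluble fraction, 1 (not 0) between Ctrl fractions, 0 (not 1) between Combo fractions, and 1 (not 2) in introns after NaAsO2 soluble. With the compared groups alone the exon counts were 1 after NaAsO2 soluble, 2 and 0 for Combo against NaAsO2 in the soluble and insoluble fractions, 2 (not 4) between NaAsO2 fractions and 0 (not 4) for the insoluble interaction with RK-33. Without the filter they were 1, 2 and 0 between the Ctrl, RK-33 and Combo fractions. Without the fold limit they were 2 for Combo against NaAsO2 soluble and 1, 3 and 4 between the Ctrl, RK-33 and Combo fractions, and 4 and 3 in introns of Combo against NaAsO2 in the soluble and insoluble fractions. With exon plus intron library size, intron counts were 1 after NaAsO2, 0 after RK-33 and 4 in Combo against NaAsO2, all soluble.

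Leaving out 1 library gave exon counts of 1 to 2 (NaAsO2 soluble), 4 to 5 (NaAsO2 insoluble), 1 to 2 (RK-33 soluble), 3 to 4 (RK-33 insoluble), 1 to 2 and 0 to 2 (Combo against NaAsO2, soluble and insoluble), 0 to 1, 2 to 6, 1 to 1 and 0 to 1 (Ctrl, NaAsO2, RK-33 and Combo fractions), 2 to 5 (fraction interaction), and 0 to 0 and 2 to 4 (interactions with RK-33). Intron counts were 1 to 2 and 2 to 2 (NaAsO2), 0 to 1 and 1 to 2 (RK-33), and 1 to 3 and 1 to 1 (Combo against NaAsO2), soluble then insoluble.

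A replicate block left the 19 counts within 1.5 times and ended 1 call, DUSP2 between NaAsO2 fractions (0.79). In Combo against NaAsO2 insoluble, where deviations of same-numbered libraries correlated, DUSP10 was at 1.11 and DUSP8 at -1.08 with the block, both called. Fits with a block changed no other call.

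Over all genes, the compared groups alone gave 507 calls in place of 296 after NaAsO2 soluble, 931 in place of 2470 after NaAsO2 insoluble, 143 in place of 91 after RK-33 soluble, 765 in place of 430 and 19 in place of 694 for Combo against NaAsO2 (soluble, insoluble), and 581 in place of 169 and 195 in place of 702 for the interactions with RK-33. In introns they gave 977 in place of 2426 after NaAsO2 insoluble, 181 in place of 116 and 283 in place of 158 after RK-33, and 682 in place of 1789 for Combo against NaAsO2 insoluble. Library size alone gave 564 after NaAsO2 soluble. Without the filter there were 1130 for Combo against NaAsO2 insoluble. The soluble interaction had 321 with library size alone, 293 without the filter, 328 by the likelihood ratio test and 289 by DESeq2. Exon plus intron library size gave 665 in place of 437 intron calls after NaAsO2 soluble and 66 in place of 116 after RK-33 soluble. Without the fold limit the counts were 187 to 10532.

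The share of calls that were higher moved with the scaling. With library size alone it was 8.69% in place of 29.4% after NaAsO2 soluble, 29.2% in place of 40.1% after NaAsO2 insoluble, 39.8% in place of 54.9% and 51.9% in place of 37.7% after RK-33, and 68.7% in place of 47.8% for the fraction interaction. With RLE factors it was 50.6% in place of 62.4% for the insoluble interaction. For introns, exon plus intron library size gave 10.2% in place of 36.8% and 11.2% in place of 72.5% after NaAsO2, and 97.6% in place of 85.7% and 80.3% in place of 61.7% for Combo against NaAsO2, and library size alone gave 62.5% in place of 75.9% after RK-33 insoluble and 73.3% and 47.8% for Combo against NaAsO2.

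Low counts limit DUSP4, DUSP6 and the DUSP2 introns of Ctrl.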
